A study of Homo sapiens with 28 samples.

Results

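Chromatin regulators of 7 name families were followed in Jurkat cells, a line from a human T cell leukaemia, over the first 4 h of activation. Members were all genes of the deposited table whose symbols begin with KDM, SETD, HDAC, CHD, ARID or BRD and a number, or with SMARC, which gave 60 of 7485 genes. They comprised 15 lysine demethylases (KDM), 6 SETD proteins, 8 histone deacetylases (HDAC), 10 SMARC proteins, 9 CHD remodellers, 6 ARID proteins and 6 BRD proteins, and no member was lost to the filter on low values. The rule used names alone and no measured value, though it was chosen with earlier results of these data known. Cells were activated with PMA at 0.5 µg/ml, a phorbol ester that switches on protein kinase C, together with PHA at 2 µg/ml, a lectin that engages the T cell receptor. Activated cells were taken at 1, 2, 3 and 4 h and compared with unactivated cells of the same line. From each time point came 4sU-labelled RNA, which is RNA made while the uridine analogue 4-thiouridine was present and pulled down through it, and total RNA. Each of the 10 groups held 3 samples described as biological replicates, except labelled and total RNA at 1 h with 2 samples each.

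DNA in the nucleus is wound on histones, and chemical marks on their tails help to set which genes can be read. Histone deacetylases remove acetyl groups, lysine demethylases remove methyl groups, several SET domain proteins add them, and bromodomain (BRD) proteins bind acetylated lysines. SMARC and CHD ATPases use the energy of ATP to move or eject nucleosomes, and ARID proteins carry a DNA-binding domain and sit in several of these complexes. T cell activation is accompanied by opening of chromatin at cytokine and other response genes, and class IIa histone deacetylases leave the nucleus when the T cell receptor is engaged.

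All values are the authors' group means with the SD between samples, on a normalised scale. Group totals were lowest in unactivated cells, at 958300 in total RNA against 1009000 to 1037000 after activation. In labelled RNA they were 913900 against 917400 to 992400. Changes are log2 changes ± SE of value + 1, tested by limma from these means and SDs. A gene was called when its Benjamini-Hochberg adjusted p over 7485 genes was under 0.05. The table holds no single-sample values, but a group's mean and SD bound where its samples can lie (at 1 h they give both samples exactly), and groups are said not to overlap where these bounds are apart. Values are shares of the sequenced RNA of whole cultures, so fewer expressing cells and less RNA per cell cannot be told apart. Of 10 T cell markers, the table held CD247, CD28, CD3D, CD3G, LCK and ZAP70, with CD3E, CD2, CD5 and LAT not among its genes, and their summed total RNA value lay between 1820 and 2143 in all 5 groups. No marker of B cells or erythroid cells was in the table. Of 5 myeloid markers it held AIF1 and VCAN, which summed to between 99.3 and 124, with CD14, LYZ and CD68 not among its genes. Of 4 fibroblast markers it held THY1 and VIM, which summed to between 413 and 588, with the collagen genes COL1A1 and COL1A2 not among its genes. The median coefficient of variation of the members between samples was 8.20% to 13.9% in labelled RNA. In total RNA it was 5.45% to 12.7%, with the highest value at 3 h. Over all genes it was 10.4% to 18.2% in labelled RNA and 6.37% to 11.2% in total RNA. The members' value was below that of all genes in each labelled group. In total RNA it was below up to 2 h and above at 3 and 4 h. Shares called or not overlapping were not matched for this spread.

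Most members that changed after activation rose. In labelled RNA, limma called 3 members higher and 0 lower at 1 h, where 6.25% of all genes were called (4.2% higher and 2.06% lower). When the spread was estimated from only the groups compared, ARID5A alone of these 3 was still called, where 3.05% of all genes were. At 2 h, 19 were higher and 3 lower, or 36.7% of members, against 21.6% of all genes (12.3% higher and 9.26% lower). Quantile normalisation lowered the higher share at 2 h to 14 of 19 calls (73.7%, against 86.4% as reported). At 3 h, 21 were higher and 4 lower, or 41.7%, against 25.2% of all genes (13.8% higher and 11.4% lower). At 4 h, 16 were higher and 6 lower, or 36.7%, against 27.5% of all genes (13.7% higher and 13.8% lower). The members' share called higher was 35.0% at 3 h. With only the groups compared, 14 were higher and 2 lower at 2 h, where 14.9% of all genes were called. The same setting gave 14 higher and 3 lower at 3 h (20.2% of all genes called) and 11 and 5 at 4 h (20.8%).

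In total RNA, at 1 h, only ARID5A was called, and it was higher, where 0.935% of all genes were called (0.788% higher and 0.147% lower) and 4 of 60 members had an unadjusted p under 0.05, beside 625 of 7485 genes. At 2 h, 7 members were higher and 1 lower (13.3%, against 13.3% of all genes, 9.71% higher and 3.58% lower). With only the groups compared, 14 were higher and 1 lower at 2 h, where 22.8% of all genes were called. At 3 h, 22 were higher and 1 lower (38.3%, against 29.8% of all genes, 18.9% higher and 10.9% lower). At 4 h, 23 were higher and 2 lower (41.7%, against 36.0%), and the share called higher was 38.3%, beside 21.4% of all genes called higher and 14.5% called lower. The median change of the members at 4 h was 0.18 in total RNA, beside 0.02 for all genes, and 0.16 in labelled RNA, beside -0.01. Over the whole course 38 members were called at some hour in either RNA and 22 were never called, with 31 called in labelled RNA, 29 in total RNA and 22 in both. Of the 60 members, 63.3% were thus called in either RNA (59.0% of all genes), 51.7% in labelled RNA (42.0%), 48.3% in total RNA (44.4%) and 36.7% in both (27.5%). The 4 hours share 1 set of unactivated samples, so they are not independent of each other.

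Separation of the samples, bounded by the same means and SDs, gave counts close to those of limma at 4 h. It took in more members than limma called at 1 h in both RNAs and at 2 h in total RNA. At 4 h, 26 of 60 members in total RNA had all activated samples above all unactivated ones (43.3%, against 24.4% of all genes) and 3 had them below (5.0%, against 17.2%). In labelled RNA at 4 h, 20 members lay above (33.3%, against 14.3%) and 5 below (8.33%, against 12.9%). Of the 31 members called in labelled RNA, the largest change fell at 3 h for 13 (41.9%, against 28.0% of all genes called) and at 4 h for 10 (32.3%, against 40.1%). In total RNA it fell at 3 h for 10 (34.5%, against 30.4%) and at 4 h for 18 of 29 (62.1%, against 58.8%). The first call came at 2 h in labelled RNA for 19 members (61.3%, against 40.3% of all genes called) and at 3 h in total RNA for 15 (51.7%, against 41.3%).

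**Figure D1:**
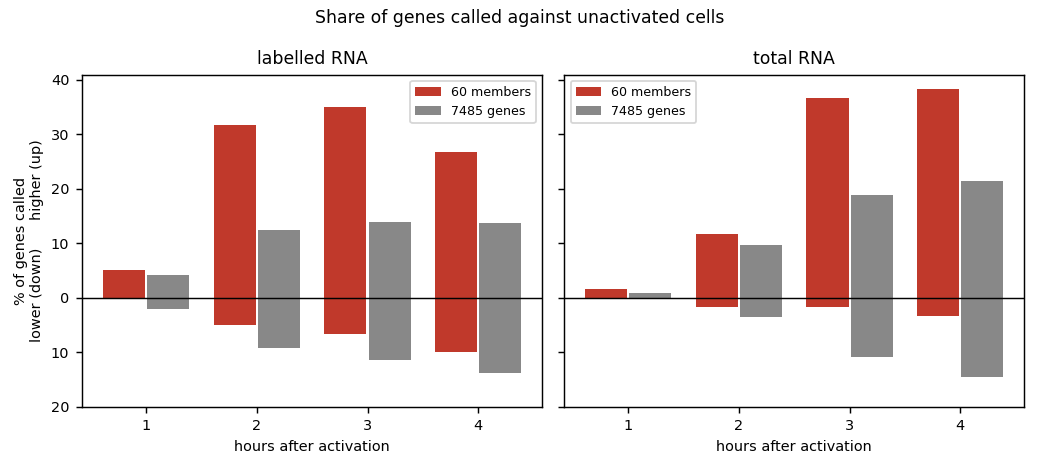
Percentage of the 60 members (red) and of all 7485 genes (grey) called higher (above the zero line) or lower (below it) than in unactivated cells at adjusted p under 0.05, by hour, in labelled RNA (left) and total RNA (right). The members' share called higher stood above that of all genes at each hour shown, by the widest margin in labelled RNA at 3 h with 35.0% against 13.8%.

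**Figure D2:**
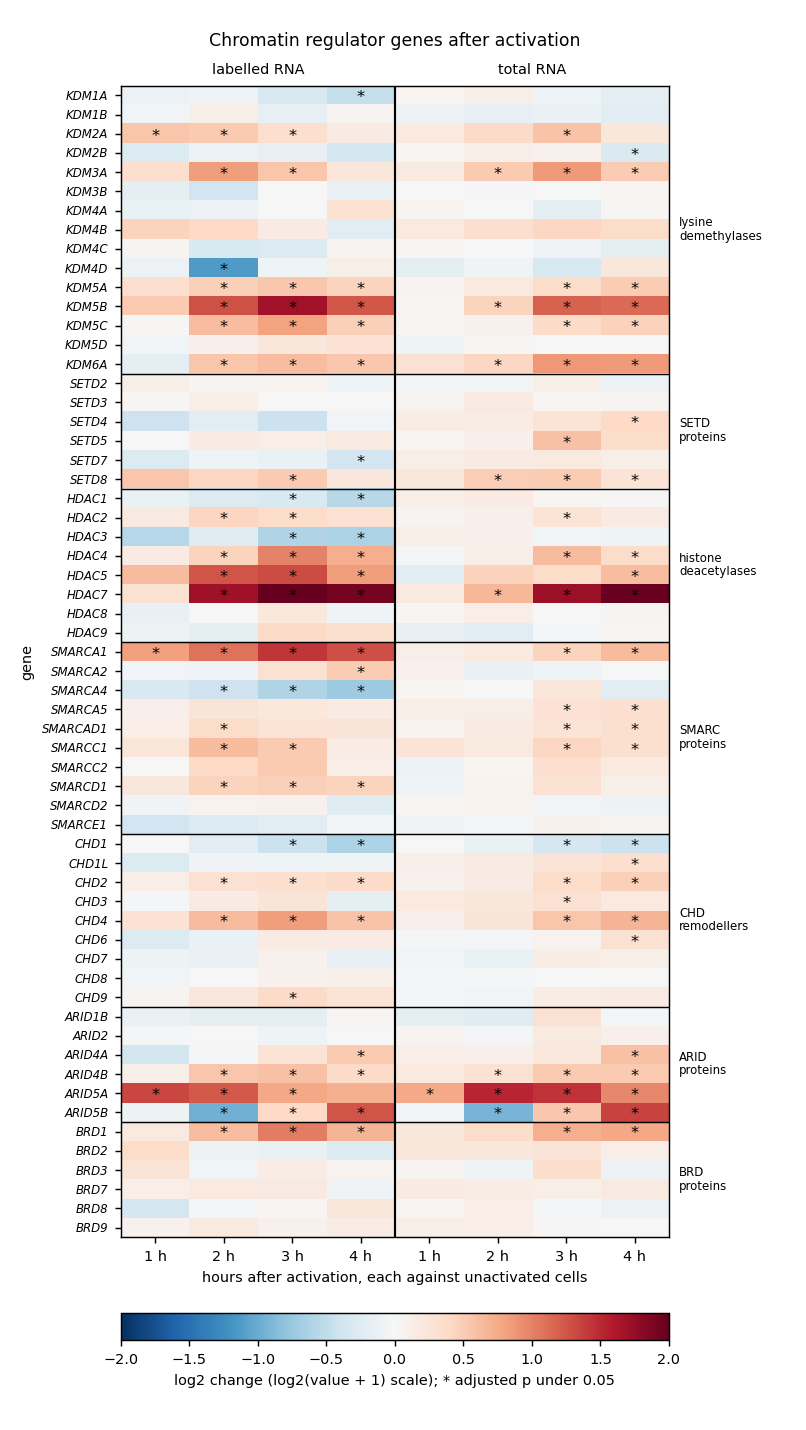
Log2 change of each member against unactivated cells at 1 to 4 h in labelled RNA (left columns) and total RNA (right columns), with genes grouped by name family. Red is higher and blue lower after activation, the colour scale ends at 2 and -2, and an asterisk marks adjusted p under 0.05. HDAC7, KDM5B, ARID5A, ARID5B and SMARCA1 carry the strongest colours, and ARID5B turns from blue at 2 h to red at 4 h in both RNAs.

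Of all members, HDAC7, KDM5B and SMARCA1 were those whose labelled RNA rose significantly more than their total RNA at 2 h, as given further on, and their promoters are shown here because labelled RNA reads recent synthesis of their transcripts. The 250 bases before each gene's RefSeq start are printed on the gene's strand (GRCh38.p14), for HDAC7 at chr12:47819904-47820153 on the minus strand, for KDM5B at chr1:202808422-202808671 on the minus strand and for SMARCA1 at chrX:129523491-129523740 on the minus strand. Capitals mark every match, on either strand, to 1 of 4 motifs of factors that act downstream of PMA and the T cell receptor or at many promoters.
HDAC7: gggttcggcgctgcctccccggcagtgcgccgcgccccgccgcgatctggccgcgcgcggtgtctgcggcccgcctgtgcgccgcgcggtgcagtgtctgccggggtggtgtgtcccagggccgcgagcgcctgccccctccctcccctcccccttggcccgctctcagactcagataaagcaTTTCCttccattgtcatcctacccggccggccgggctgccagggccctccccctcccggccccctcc
KDM5B: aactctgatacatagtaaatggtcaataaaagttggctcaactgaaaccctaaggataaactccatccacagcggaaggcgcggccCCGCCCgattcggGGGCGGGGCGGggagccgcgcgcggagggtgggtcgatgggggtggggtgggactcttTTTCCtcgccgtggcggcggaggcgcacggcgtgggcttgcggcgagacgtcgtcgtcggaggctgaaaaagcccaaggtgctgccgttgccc
SMARCA1: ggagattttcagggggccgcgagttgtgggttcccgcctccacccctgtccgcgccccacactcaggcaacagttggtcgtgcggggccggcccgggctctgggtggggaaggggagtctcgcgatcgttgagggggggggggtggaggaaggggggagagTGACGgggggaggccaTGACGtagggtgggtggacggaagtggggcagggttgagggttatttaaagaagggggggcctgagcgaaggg
The motifs searched were TGANTCA for AP-1, TGACG for the core of cyclic AMP response elements, GGAAA for NFAT and GGGCGG for the GC box. Neighbouring GC boxes can share a base, and no motif contains another. HDAC7 held 1 NFAT core, KDM5B held 1 NFAT core and 3 GC boxes, and SMARCA1 held 2 copies of TGACG. No motif was common to the 3 promoters. Among 35116 RefSeq promoters of the same length, 55.6% held GGAAA, 42.6% GGGCGG, 21.2% TGACG and 6.57% TGANTCA. Among 91 promoters of the 54 members matched by name the shares were 54.9%, 54.9%, 17.6% and 6.59%, in the same order. These matches are letters in a window and not measured binding.

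Among the histone deacetylases, the class IIa enzymes HDAC4, HDAC5 and HDAC7 rose, whereas labelled RNA of the class I enzymes HDAC1 and HDAC3 fell. HDAC7, a repressor abundant in thymocytes that is exported from the nucleus after T cell receptor signalling, had labelled values of 24.9 ± 3.44 in unactivated cells, 31.1 ± 0.781 at 1 h, 82.2 ± 10.6 at 2 h, 106 ± 9.55 at 3 h and 97.2 ± 14.8 at 4 h. Its total values were 10.6 ± 2.09, 12.2 ± 2.77, 17.4 ± 2.58, 36.8 ± 3.95 and 44.4 ± 6.96 at the same times. Activated and unactivated samples did not overlap from 1 h in labelled RNA and from 2 h in total RNA. The change was the largest of any member, at 2.05 ± 0.19 in labelled RNA at 3 h (limma, adjusted p = 3.14e-12) and 1.97 ± 0.16 in total RNA at 4 h (limma, adjusted p = 1.11e-08). HDAC4 had labelled values of 219 ± 9.11 at 3 h and 110 ± 33.6 in unactivated cells, a change of 0.99 ± 0.16 (limma, adjusted p = 3.57e-06), with no overlap. HDAC5, also class IIa, stayed at low levels and had 15.1 ± 3.00 in labelled RNA at 3 h against 5.53 ± 2.15 in unactivated cells, a change of 1.30 ± 0.29 (limma, adjusted p = 0.000514). HDAC9, the remaining class IIa member, passed the test at no hour, with changes between -0.20 and 0.39 in labelled RNA.

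HDAC1, a class I enzyme shared by the NuRD, SIN3 and CoREST complexes, behaved differently in the 2 kinds of RNA. Labelled values were 491 ± 55.5 in unactivated cells, 446 ± 5.56 at 1 h, 407 ± 36.4 at 2 h, 395 ± 18.1 at 3 h and 335 ± 31.0 at 4 h. The 4 h samples all lay below the unactivated ones, a fall by 0.55 on the log2 scale (limma, SE 0.11, adjusted p = 0.000232). In total RNA HDAC1 had 837 ± 19.7 at 4 h and 822 ± 73.8 in unactivated cells, which did not pass the test (adjusted p = 0.867). HDAC3, the catalytic subunit of the NCoR and SMRT corepressors, fell by 0.64 in labelled RNA at 4 h (limma, SE 0.20, adjusted p = 0.0139), with 45.4 ± 12.2 at 4 h against 71.4 ± 11.9 in unactivated cells, though these groups may overlap. HDAC2, the close relative of HDAC1, went the other way, with labelled values of 356 ± 40.0 at 2 h against 265 ± 49.9 in unactivated cells (change 0.43, limma, adjusted p = 0.0133), and these groups may overlap too. This call was lost under quantile normalisation and under a constant prior variance. HDAC8 passed the test in neither RNA.

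Of the lysine demethylases, 6 of 15 were called higher and 0 lower in labelled RNA at 3 h (40.0%, against 25.2% of all genes, 13.8% higher and 11.4% lower). In total RNA at 4 h, 5 were higher and 1 lower (40.0%, against 36.0% of all genes, 21.4% higher and 14.5% lower). KDM5B, which removes methyl groups from histone H3 lysine 4, led them, with labelled values of 133 ± 47.6 in unactivated cells, 193 ± 0.907 at 1 h, 324 ± 15.5 at 2 h, 427 ± 10.9 at 3 h and 314 ± 35.4 at 4 h. Total values were 70.5 ± 4.50, 72.4 ± 7.24, 96.6 ± 3.97, 161 ± 18.1 and 156 ± 4.48. Samples from 2 h on lay above the unactivated ones in both RNAs, and the change at 3 h was 1.68 ± 0.15 in labelled RNA (limma, adjusted p = 2.09e-11) and 1.18 ± 0.09 in total RNA (limma, adjusted p = 7.18e-09). Its paralogues with the same substrate moved less. KDM5A, the member of this family with the highest RPKM, changed by 0.54 ± 0.12 in labelled RNA at 3 h and by 0.50 ± 0.09 in total RNA at 4 h, and KDM5C changed by 0.80 ± 0.16 and 0.46 ± 0.09, all called. KDM5D, the Y-linked paralogue, was called at no hour in either RNA.

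KDM6A, which removes methyl groups from histone H3 lysine 27, had total values of 33.3 ± 2.62 in unactivated cells, 41.3 ± 1.76 at 1 h, 45.0 ± 1.26 at 2 h, 61.2 ± 8.35 at 3 h and 61.0 ± 3.04 at 4 h. Every hour lay clear of the unactivated samples, and the change at 3 h was 0.86 ± 0.10 (limma, adjusted p = 2.61e-06). KDM3A, a histone H3 lysine 9 demethylase, peaked earlier in labelled RNA, with 119 ± 14.3, 151 ± 5.16, 214 ± 18.9, 175 ± 20.1 and 140 ± 20.3 over the course. It rose by 0.84 ± 0.14 in labelled RNA at 2 h (limma, adjusted p = 1.71e-05) and by 0.85 ± 0.11 in total RNA at 3 h (limma, adjusted p = 8.16e-06), and its 4 h labelled samples may overlap the unactivated ones. KDM2A, a lysine 36 demethylase that binds unmethylated CpG islands, was 1 of the 3 members called in labelled RNA at 1 h. Its labelled samples had 334 and 351 at 1 h, against 233 ± 16.5 in unactivated cells, a change of 0.55 ± 0.13 (limma, adjusted p = 0.00532), which was not called with only the groups compared (limma, adjusted p = 0.0669). By 4 h the change of 0.16 was no longer called.

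Decreases among demethylases were few. KDM2B, which brings a polycomb complex to CpG islands, had a total value of 70.7 ± 3.59 at 4 h against 87.0 ± 4.91 in unactivated cells, a fall by 0.29 (limma, SE 0.08, adjusted p = 0.0102) with no overlap. KDM1A, or LSD1, the flavin-dependent lysine 4 demethylase, had labelled values of 208 ± 2.66 at 4 h and 288 ± 22.3 in unactivated cells, a fall by 0.47 (limma, SE 0.12, adjusted p = 0.00321), while its total value changed by -0.18 without passing the test. KDM4D, a lysine 9 demethylase, was near the bottom of the measured range, with a labelled value of 2.94 ± 1.23 at 2 h against 7.67 ± 0.933 in unactivated cells, a fall by 1.14 (limma, SE 0.31, adjusted p = 0.00567). With a pseudocount of 5 in place of 1 the change was -0.67 and was still called (limma, adjusted p = 0.0136). At 1, 3 and 4 h its labelled value lay between 6.97 and 8.37 and was not called. KDM1B, KDM3B, KDM4A, KDM4B and KDM4C passed the test at no hour.

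The SETD proteins moved little. SETD8, now named KMT5A, which adds 1 methyl group to histone H4 lysine 20, had total values of 66.0 ± 3.38 in unactivated cells, 77.6 ± 5.80 at 1 h, 92.8 ± 3.61 at 2 h, 93.8 ± 11.7 at 3 h and 80.5 ± 5.22 at 4 h. All activated groups lay above the unactivated samples, and the change reached 0.50 ± 0.10 at 3 h (limma, adjusted p = 0.00048). SETD7, a methyltransferase of histone H3 lysine 4, was called lower in labelled RNA at 4 h (limma, -0.39 ± 0.15, adjusted p = 0.0452), with groups that may overlap. SETD4 was called higher in total RNA at 4 h (0.40 ± 0.12, limma, adjusted p = 0.0138), and SETD5 at 3 h alone (0.59 ± 0.18, limma, adjusted p = 0.02), where its value was 96.8 ± 37.4 and may overlap that of unactivated cells. With only the groups compared, neither SETD7 nor SETD5 was called. SETD2, which writes trimethylation of histone H3 lysine 36, and SETD3, an actin histidine methyltransferase and the SETD member with the highest RPKM, were called at no hour. SETD3 had a total value of 212 ± 6.11 at 4 h and 205 ± 17.0 in unactivated cells.

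Among the SMARC ATPases, labelled SMARCA1 rose and labelled SMARCA4 fell. SMARCA1, the ISWI ATPase also called SNF2L, had labelled values of 23.2 ± 2.83 in unactivated cells, 41.6 ± 7.22 at 1 h, 50.4 ± 7.47 at 2 h, 64.1 ± 6.49 at 3 h and 58.3 ± 8.38 at 4 h. Every activated group lay above the unactivated samples, from the 1 h samples at 36.5 and 46.7 onward. The change was 0.82 ± 0.23 at 1 h (limma, adjusted p = 0.0217), not called with only the groups compared (limma, adjusted p = 0.197). It was 1.43 ± 0.20 at 3 h (limma, adjusted p = 3.83e-07), and in total RNA it was 0.64 ± 0.10 at 4 h (limma, adjusted p = 8.05e-05). SMARCA4, or BRG1, an ATPase of the SWI/SNF complexes, had labelled values of 216 ± 30.8, 175 ± 29.1, 163 ± 16.9, 142 ± 14.1 and 130 ± 17.0 over the course, a fall by 0.73 at 4 h (limma, SE 0.15, adjusted p = 0.000145). Its labelled samples at 3 and 4 h lay below all unactivated ones, whereas total RNA had 185 ± 16.8 at 4 h against 215 ± 9.40 in unactivated cells and was not called. SMARCA2, or BRM, the alternative SWI/SNF ATPase, had a labelled value of 85.5 ± 10.8 at 4 h against 59.99 ± 7.36 in unactivated cells, a change of 0.50 ± 0.19 (limma, adjusted p = 0.0456) with no overlap, and was not called with only the groups compared (limma, adjusted p = 0.0727).

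Among the other SMARC proteins, SMARCA5, the ISWI ATPase SNF2H and the member with the highest RPKM of all 60, had a total value of 1166 ± 80.3 at 4 h and 922 ± 46.1 in unactivated cells, a change of 0.34 ± 0.08 (limma, adjusted p = 0.00357). SMARCC1, a core scaffold of the SWI/SNF complexes, rose in labelled RNA by 0.64 ± 0.13 at 2 h (limma, adjusted p = 0.000223) and had 277 ± 22.9 at 4 h against 249 ± 58.6 in unactivated cells, no longer called, while its total RNA was called higher at 3 and 4 h. SMARCD1, an accessory SWI/SNF subunit, was called higher in labelled RNA from 2 to 4 h, by 0.44 to 0.47, and SMARCAD1, a remodeller that acts behind replication forks, was called higher at 2 h in labelled RNA and at 3 and 4 h in total RNA. With only the groups compared, the labelled calls of SMARCD1 and SMARCAD1 and the 3 h total call of SMARCAD1 were lost, and quantile normalisation ended the 4 h total call of SMARCC1. SMARCC2, SMARCD2 and SMARCE1, further SWI/SNF subunits, passed the test at no hour.

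CHD4 and CHD1 were the CHD remodellers that changed most, in opposite directions. CHD4, the main ATPase of the NuRD deacetylase complex, had total values of 717 ± 21.8 in unactivated cells, 769 ± 12.8 at 1 h, 855 ± 59.5 at 2 h, 1048 ± 64.8 at 3 h and 1153 ± 130 at 4 h. No activated group overlapped the unactivated samples, and the change at 4 h was 0.68 ± 0.09 (limma, adjusted p = 7.47e-06). Labelled CHD4 was highest at 3 h, with 1023 ± 51.4 against 571 ± 36.3 in unactivated cells, a change of 0.84 ± 0.10 (limma, adjusted p = 3.71e-09). CHD1, which binds trimethylated histone H3 lysine 4 at active genes, had labelled values of 1169 ± 106, 1159 ± 43.6, 998 ± 117, 866 ± 67.9 and 754 ± 3.65 over the course and total values of 623 ± 25.7, 623 ± 102, 566 ± 12.5, 496 ± 9.02 and 462 ± 50.6. From 3 h its samples lay below the unactivated ones in both RNAs. It fell by 0.63 in labelled RNA (limma, SE 0.10, adjusted p = 2.78e-06) and by 0.43 in total RNA at 4 h (limma, SE 0.09, adjusted p = 0.00132).

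CHD2, a relative of CHD1, rose in contrast to it, by 0.47 ± 0.08 in total RNA (limma, adjusted p = 0.000116) and 0.38 ± 0.11 in labelled RNA at 4 h (limma, adjusted p = 0.00874). CHD1L, a remodeller recruited to DNA damage by poly(ADP-ribose), and CHD6 were called higher in total RNA at 4 h alone, by 0.33 and 0.30. CHD3, the second NuRD ATPase, was called in total RNA at 3 h alone, by 0.31, and CHD9 in labelled RNA at 3 h alone, by 0.39. Quantile normalisation ended the calls of CHD3 and CHD9, and a constant prior variance that of labelled CHD2 at 4 h. CHD7 and CHD8 were called at no hour.

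ARID5A and ARID5B had the most distinctive courses of all members. ARID5A, which in mice is known to bind and stabilise interleukin-6 mRNA, had low total values of 4.05 ± 0.133 in unactivated cells, 7.47 ± 0.697 at 1 h, 13.6 ± 2.11 at 2 h, 12.8 ± 2.31 at 3 h and 8.81 ± 0.735 at 4 h. Labelled values were 7.63 ± 2.54, 20.7 ± 6.33, 19.2 ± 5.68, 13.7 ± 1.67 and 13.1 ± 1.12, highest at 1 h. The 1 h samples, with 6.98 and 7.96 in total RNA and 16.2 and 25.2 in labelled RNA, already lay above all unactivated ones. The change was 1.33 ± 0.31 in labelled RNA at 1 h (limma, adjusted p = 0.00489), 0.75 ± 0.17 in total RNA at 1 h (limma, adjusted p = 0.0382) and 1.53 ± 0.15 in total RNA at 2 h (limma, adjusted p = 6.25e-07). The 1 h call in total RNA was lost under 3 alternative settings, among them a pseudocount of 5, and was not tested under a minimum mean of 20.

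ARID5B, a DNA-binding partner of the histone demethylase PHF2, dipped and then rose. Its labelled values were 212 ± 44.4 in unactivated cells, 198 ± 35.2 at 1 h, 109 ± 3.53 at 2 h, 280 ± 19.3 at 3 h and 511 ± 11.04 at 4 h. Total values were 57.3 ± 4.67, 55.2 ± 10.4, 29.7 ± 2.68, 84.1 ± 14.9 and 148 ± 12.01. In both RNAs the 2 h samples lay below and the 4 h samples above all unactivated ones. At 2 h ARID5B fell by 0.96 in labelled RNA (limma, SE 0.13, adjusted p = 3.79e-07) and by 0.93 in total RNA (limma, SE 0.13, adjusted p = 3.39e-05), the largest fall of any member in total RNA. At 4 h it was higher by 1.26 ± 0.13 in labelled RNA (limma, adjusted p = 3.32e-10) and by 1.35 ± 0.13 in total RNA (limma, adjusted p = 8.22e-08).

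ARID4A and ARID4B, both subunits of the SIN3 deacetylase complex, rose as well. ARID4A, the ARID member with the highest RPKM, had a total value of 124 ± 18.1 at 4 h against 82.1 ± 8.34 in unactivated cells, a change of 0.59 ± 0.11 (limma, adjusted p = 0.000412). ARID4B was called higher at 2, 3 and 4 h in both RNAs, with a labelled value of 347 ± 7.96 at 3 h against 229 ± 39.5 in unactivated cells. Its call in total RNA at 2 h (limma, adjusted p = 0.0497) was lost under 5 alternative settings, and its labelled call at 4 h under a constant prior variance or with only the groups compared. ARID1B and ARID2, subunits of the SWI/SNF complexes, passed the test at no hour.

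**Figure D3:**
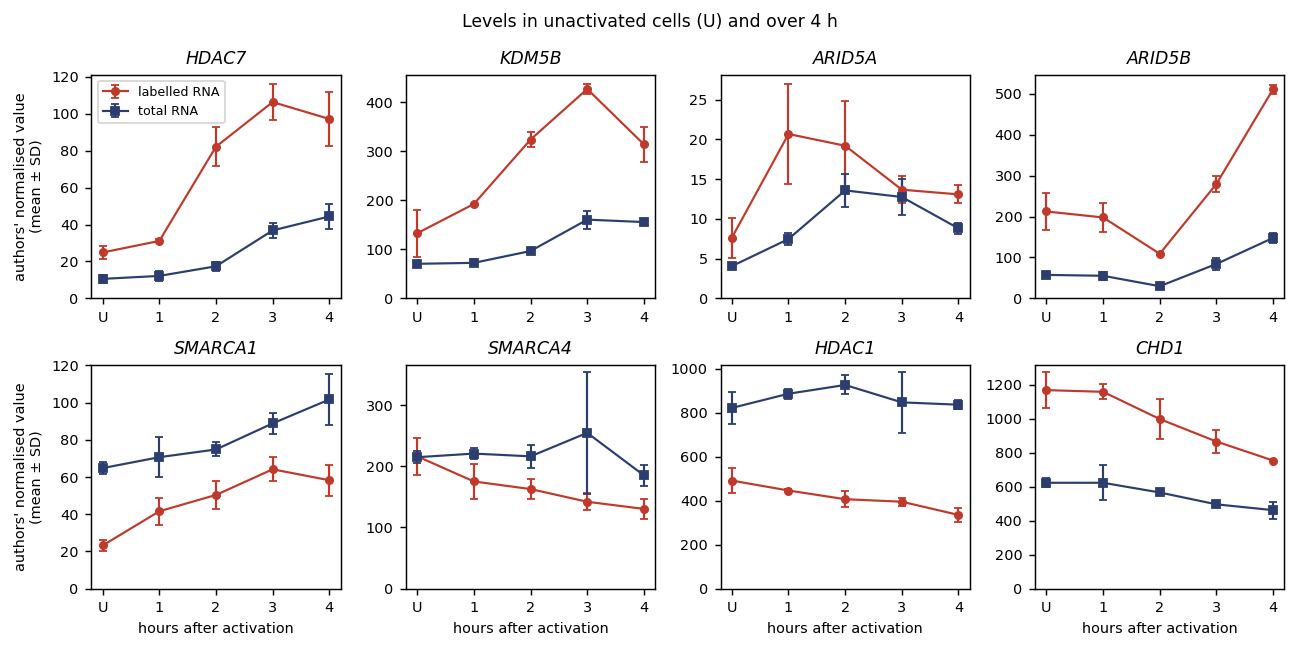
Authors' mean normalised value ± SD of 8 members in unactivated cells (U) and at 1 to 4 h, in labelled RNA (red circles) and total RNA (blue squares), n = 3 per point and 2 at 1 h, each panel with its own linear scale from 0. HDAC7, KDM5B and SMARCA1 climb, ARID5A is high early, ARID5B dips at 2 h, and labelled SMARCA4, HDAC1 and CHD1 decline, with CHD1 declining in total RNA too.

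Of the BRD proteins, 1 of 6 was called against unactivated cells at some hour in either RNA, as were 59.0% of all genes. BRD1, a scaffold of histone acetyltransferase complexes, had labelled values of 86.2 ± 10.8 in unactivated cells, 99.2 ± 14.9 at 1 h, 132 ± 10.99 at 2 h, 177 ± 2.63 at 3 h and 139 ± 7.24 at 4 h. The samples from 2 h on lay above the unactivated ones. The change was 1.03 ± 0.15 in labelled RNA at 3 h (limma, adjusted p = 3.65e-07) and 0.77 ± 0.13 in total RNA at 4 h (limma, adjusted p = 9.95e-05). BRD2 and BRD3, BET proteins that bind acetylated histone tails, BRD7 and BRD9 of the SWI/SNF complexes and BRD8 of the TIP60 complex passed the test against unactivated cells at no hour. BRD7, the BRD member with the highest RPKM, had a total value of 303 ± 22.5 at 4 h and 266 ± 40.5 in unactivated cells. Labelled BRD2 had 570 ± 59.7 at 1 h, 366 ± 5.61 at 4 h and 441 ± 5.21 in unactivated cells, with its 1 h samples above and its 4 h samples below the unactivated ones, neither called (adjusted p = 0.062 and 0.0623).

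A comparison of 4 h with 1 h does not use the unactivated means and read the later part of the course. In labelled RNA 9 members were higher and 4 lower at 4 h than at 1 h (21.7%, against 22.7% of all genes, 9.39% higher and 13.3% lower). In total RNA 15 were higher and 2 lower (28.3%, against 26.1% of all genes, 12.5% higher and 13.7% lower). Under quantile normalisation 11 of 13 calls in labelled RNA were higher (84.6%, against 69.2% as reported), and under median centring 9 of 15 were. Under a constant prior variance 8 were called in labelled RNA, 6 higher and 2 lower, where 18.7% of all genes were called. BRD2 was called lower at 4 h than at 1 h in labelled RNA, with a change of -0.64 ± 0.12 (limma, adjusted p = 0.000135). HDAC7 at 1.61 ± 0.21 and ARID5B at 1.37 ± 0.15 were the largest increases in labelled RNA.

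The change of the labelled-to-total ratio against unactivated cells tested directly whether the 2 kinds of RNA changed unequally. At 1 h no member passed limma's test, where 0.321% of all genes did (0.24% higher and 0.0802% lower), and 7 of 60 members had an unadjusted p under 0.05, beside 777 of 7485 genes. At 2 h, 3 members were higher and 0 lower (5.0%, against 2.66% of all genes, 1.1% higher and 1.56% lower), namely HDAC7 by 1.02 ± 0.24 (limma, adjusted p = 0.0135), SMARCA1 by 0.88 ± 0.21 (limma, adjusted p = 0.0102) and KDM5B by 0.83 ± 0.20 (limma, adjusted p = 0.0139). At 3 h the count was 1 higher and 1 lower (3.33%, against 2.58% of all genes, 0.815% higher and 1.76% lower): SMARCA1 by 0.98 ± 0.21 (limma, adjusted p = 0.00458) and SMARCA4 by -0.85 ± 0.23 (limma, adjusted p = 0.0392). At 4 h HDAC1 alone was called (1.67%, against 2.91% of all genes, 0.681% higher and 2.23% lower), lower by 0.58 on the log2 scale (limma, SE 0.15, adjusted p = 0.0215). The SMARCA4 result rests in part on a total value of 255 ± 99.4 at 3 h, in the total RNA group with the highest median coefficient of variation. Of these changes SMARCA1 at 3 h kept its call under all 6 alternative settings, while HDAC7, KDM5B, SMARCA4 and HDAC1 each lost theirs under at least 1. Quantile normalisation gave 2 higher of 3 calls at 3 h, where 1 of 2 is reported, and 1 higher of 2 at 4 h, where the only call reported was lower. The shares of members called were small, and total and labelled values were treated as independent.

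In unactivated cells, members were more often higher in labelled than in total RNA. limma called 32 members higher and 12 lower (73.3%, against 67.5% of all genes), with 53.3% of members called higher, beside 40.6% of all genes called higher and 26.9% called lower. The median difference was 0.35 for the members and 0.15 for all genes, so a typical gene was itself shifted by 0.15, and differences are best read relative to that. The 6 ARID proteins, 7 of 9 CHD remodellers and 5 of 6 BRD proteins were called higher, whereas 2 of 10 SMARC proteins were higher and 4 lower. SETD5, a SET domain protein linked to intellectual disability, had the greatest difference, with 285 ± 53.1 in labelled RNA and 63.8 ± 4.78 in total RNA, a log2 difference of 2.14 ± 0.16 (limma, adjusted p = 1.47e-13). ARID5B followed at 1.87 ± 0.14 and CHD2 at 1.55 ± 0.10. At the other end, KDM1B, a flavin-dependent lysine 4 demethylase, had 21.4 ± 1.63 in labelled RNA and 61.1 ± 3.27 in total RNA, a difference of -1.47 ± 0.16 (limma, adjusted p = 1.07e-09), and SMARCA1 had -1.45 ± 0.15. ISWI's SMARCA1 and SMARCA5 (-0.44) were both lower, the class IIa enzymes HDAC4 (1.36), HDAC7 (1.16) and HDAC9 (0.57) were higher, HDAC5 (0.16) was not called and HDAC1 (-0.74) was lower, and NuRD's CHD4 (-0.33) and CHD3 (-0.28) were the only CHD remodellers called lower. The calls of CHD3, CHD8, BRD7, BRD9, HDAC8 and SMARCAD1 in this comparison were each lost under at least 1 alternative setting. Median centring and quantile normalisation were done within each kind of RNA. They did not bring labelled and total values to a common level, so they could not test the shift between the kinds. No source used here states how labelled values were scaled against total ones, though the authors' decay rates imply a factor of 0.266, as given further on. The differences here are of values without that factor. A difference therefore places a gene relative to other genes and is no fraction of new RNA.

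**Figure D4:**
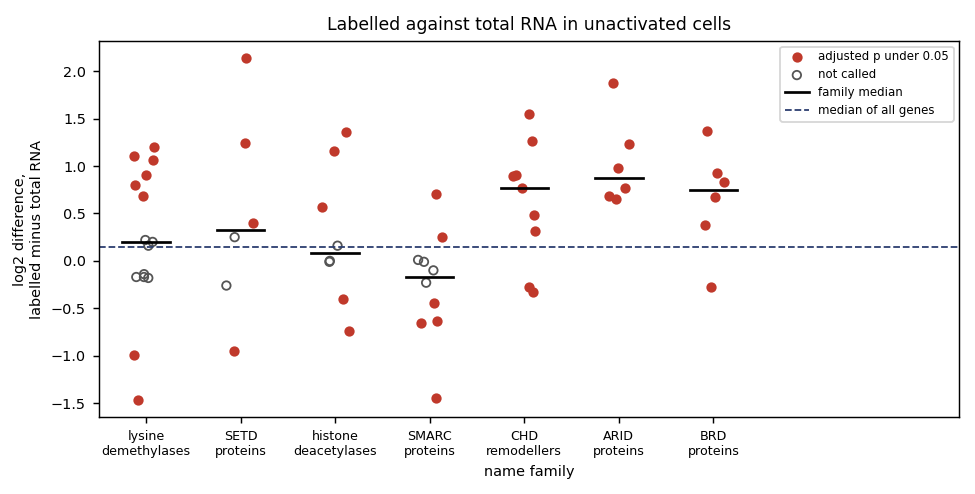
Log2 difference between labelled and total RNA in unactivated cells, 1 point per member, by name family, filled where adjusted p was under 0.05. Black bars are family medians and the dashed line is the median of all 7485 genes at 0.15, and the ARID, CHD and BRD medians lie at 0.87, 0.77 and 0.75, above the SMARC median of -0.17.

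Levels per length spanned a wide range. By the authors' deposited RPKM, averaged over total RNA, SMARCA5 (1977), CHD4 (1391), HDAC1 (1107) and CHD1 (699) stood highest and KDM4D (1.33), ARID5A (4.48) and HDAC5 (6.80) lowest. The total value divided by the length of the longest coding transcript in GENCODE gave a related but different order (Spearman's rho 0.70 across the 60 members, which share libraries), with HDAC1 at the top with 407 per kilobase, ahead of KDM1A with 185 and CHD4 with 136. HDAC7, ARID5A and HDAC5, which rose strongly, stood at 5.93, 3.03 and 1.14 per kilobase. How the authors' RPKM was scaled could not be recovered from the total values, so its level was used for order alone.

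Other chromatin genes were read from 10 lists that hold no member. At 4 h in total RNA, where 36.0% of all genes were called, 14 of 28 measured genes of lysine acetyltransferase complexes were higher and 2 lower, led by PHF15 at 1.61 ± 0.11 and BRPF1 at 0.98 ± 0.10, a scaffold of acetyltransferase complexes. Of 26 polycomb genes, 9 were higher and 4 lower, with MTF2 (1.24), JARID2 (1.11) and RYBP (1.06), accessory subunits of polycomb complexes, at one end and CBX2 (-1.12), a reader of methylated histone H3 lysine 27, at the other. Of 25 partners of histone deacetylases, 6 were higher and 2 lower, and RCOR1, the CoREST scaffold that joins KDM1A to HDAC1 and HDAC2, had the largest change, at 2.43 ± 0.15. Of 11 SWI/SNF subunits with other names, 2 were higher and 3 lower, namely BCL7A (-1.30), BCL11A (-0.92) and BCL11B (-0.69).

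Among 12 genes of DNA methylation, 5 were higher and 3 lower, including the methyltransferase DNMT3A (0.97) and the dioxygenase TET2 (0.86). Of 24 other lysine methyltransferases 3 were higher and 2 lower, of 29 INO80 and ISWI genes 5 and 2, of 19 histone chaperones 1 and 2, of 5 sirtuins 1 and 1, and of 8 arginine methyltransferases none was called. In labelled RNA at 3 h, 25.2% of all genes were called (13.8% higher and 11.4% lower). There 8 of 28 genes of acetyltransferase complexes were higher and 1 lower, and 10 of 26 polycomb genes were higher and 3 lower. Of 25 partners of histone deacetylases, 2 were higher and 2 lower, with RCOR1 at 2.89 ± 0.12.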

How the data were processed

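Per the submitters' processing notes, the authors used TopHat2, HTSeq and edgeR with the hg19 build (versions not listed). The deposited table gives, per the file headers, each group's mean and SD of normalised signal and no single-sample value, so depth is unknown and the planned fit to samples could not be made. Instead the group summaries were fitted with limma 3.58.1 (R 4.3.3) on the log2(mean + 1) scale, where changes of low genes come out too small, with SDs carried over to first order. Residual variance was pooled over the 5 groups of 1 RNA kind (9 degrees of freedom) or over all 10 (18), with a trend and the robust option. The fit was tried on simulated data with independent samples and, for each gene, the same coefficient of variation in all groups. Unequal spread between groups and any covariance of total and labelled RNA of a culture were not simulated. P-values were adjusted over all 7485 genes in each of 15 comparisons. Requiring a mean of at least 1 in a group removed 0 genes.

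The authors' deposited RPKM was used for order alone. Decay rates are natural log values and HuR LOD and T values are scores, both as deposited by the authors, with no description of how they were made. Members and gene lists were chosen with earlier results of these data known. Genes named with full statistics were the 8 largest rises and up to 8 falls in total RNA (3 were called), the 6 largest each way in labelled RNA, the 5 largest ratio changes and the highest RPKM of each family, and others are named with single values. Promoters came from RefSeq (GRCh38.p14), where 54 members matched.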

Additional observations from a re-analysis of the deposited data

Results flagged for a closer look

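In 6 cases labelled and total RNA of a member changed unequally against unactivated cells by limma's test of the difference itself, at an adjusted p under 0.05. At 2 h the labelled change exceeded the total change by 1.02 on the log2 scale for HDAC7, by 0.83 for KDM5B and by 0.88 for SMARCA1. At 3 h it exceeded it by 0.98 for SMARCA1, while for SMARCA4 the difference was -0.85. At 4 h the difference for HDAC1 was -0.58.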

How the results depend on the processing

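All 6 alternatives were run on the 15 counts of members called and on the 28 changes of named members, except that a member whose mean was under 20 drops out where that minimum is set. None reversed, and 24 of the 28 changes kept their call throughout. The other 4 were ratio changes, with direction and size kept: with the groups compared alone the adjusted p was 0.0613 for HDAC7 and 0.0831 for KDM5B at 2 h, 0.143 for SMARCA4 at 3 h and 0.0606 for HDAC1 at 4 h. Constant prior variance gave 0.0777 for SMARCA4 and 0.0608 for HDAC1, and median centring 0.0677 for SMARCA4.

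The count in total RNA at 1 h, 1 as reported, was 0 with a pseudocount of 5, median centring or quantile normalisation. It was also 0 with a minimum mean of 20, because ARID5A was not tested there. Over all genes these settings called 0.922%, 0.748%, 0.802% and 1.06%, in the same order, against 0.935% as reported. With the groups compared alone the count in total RNA at 2 h was 15 against 8 (22.8% of all genes against 13.3%). In labelled RNA at 1 h it was 1 against 3 (3.05% of all genes against 6.25%). For the ratio at 2, 3 and 4 h it was 1, 1 and 0 against 3, 2 and 1. The shares of all genes there were 1.84%, 0.762% and 0.949% against 2.66%, 2.58% and 2.91%. The same setting gave 16, 17 and 16 in labelled RNA at 2, 3 and 4 h against 22, 25 and 22, and 18 in total RNA at 3 h against 23. Median centring gave 5 in labelled RNA at 1 h, 5 for the ratio at 2 h and 1 at 3 h. Its shares of all genes there were 6.87%, 3.02% and 2.23%. Constant prior variance gave 8 for labelled RNA at 4 h against 1 h, where 13 were reported (18.7% of all genes against 22.7%). For the ratio at 4 h it gave 0 (2.31% of all genes), and quantile normalisation gave 2 there (2.62%). Apart from the missing gene, the cause was not tested.

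No paired analysis was possible because the deposited values are means over samples. Leaving out each sample was not run, since the table holds no single samples.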

Other observations

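The authors' deposited table also marks binding by HuR, an RNA-binding protein known to stabilise many short-lived mRNAs. It lists 14 of 60 members (23.3%) as iCLIP targets, against 19.4% of all genes, and 39 (65.0%) as targets by 3′UTR, against 61.0%. Of 42 members with a HuR LOD score in the authors' deposited table, BRD3 and SMARCC1 carry a HuR call (4.76%, against 11.6% of 5017 genes). The LOD score was higher at 4 h than at 0 h in 30 of 42 members (71.4%, against 61.7%), with a median difference of 1.11, beside 0.88 for all genes with a score. KDM4A at 11.33 and KDM1A at 10.53 had the largest increases in the authors' deposited table and CHD8 at -7.36 the largest decrease, none with a HuR call.

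The authors' deposited decay rates can be computed from the group means compared above. In 7330 genes the rate before activation equalled the natural log of the share of total RNA left after 0.266 times the labelled value was taken off, to within 0.1 in every one, and at the later hours the same held with the total value of the hour before as the divisor. The members' median rate in unactivated cells was -0.40 on the natural log scale, against -0.34 for all genes, and ranged from -4.23 for ARID5B to -0.10 for KDM1B and SMARCA1 in the authors' deposited table. By this formula almost none of the total value of ARID5B was left after the subtraction. No rate is listed there for SETD5 before activation, the member whose labelled value exceeded its total value most. For SETD5, 0.266 times the labelled value exceeds the total value, so there is no logarithm to take.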
